A study of Mus musculus with 6 samples.

Results

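Heat shock proteins of the cytosol and the mitochondrial matrix were followed in mouse macrophages driven towards the osteoclast, with and without Visomitin. The 10 genes were chosen by name, 6 for cytosolic chaperones (Hsp90aa1, Hsp90ab1, Hspa8, Hsph1, Dnaja1 and Dnajb1) and 4 for mitochondrial ones (Hspd1, Hspe1, Hspa9 and Trap1), and all 10 were found among the 57180 identifiers of the expression table. The cells were wild-type bone marrow-derived macrophages, precursors that can fuse into bone-resorbing osteoclasts, cultured for 5 days under osteoclast-forming conditions. Visomitin, also called SkQ1, is a plastoquinone antioxidant carrying a positively charged group through which it accumulates in mitochondria. There were 3 control libraries and 3 Visomitin libraries, and neither the dose nor the age of the mice is stated. Nothing says that the libraries came from separate cultures or mice, so p-values speak to the spread among these 6 libraries alone, and that spread could be technical.

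Chaperones help other proteins reach and keep their folded shape. In the cytosol, J proteins bring clients to the HSP70 ATPases, nucleotide exchange factors release them, and HSP90 dimers take over many kinases and receptors. The mitochondrial matrix has its own set: a mitochondrial HSP70 that pulls in and folds imported proteins, the HSP60 chaperonin barrel with its HSP10 lid, and an HSP90 relative, TRAP1. Cytosolic heat shock genes are induced by the factor HSF1, which binds inverted repeats of the letters GAA, and stress inside the matrix is known to raise the matrix chaperones.

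Levels are in TPM, the length-adjusted share of each library's transcripts scaled to a fixed total, which keeps no read depth, so the depth is unknown. Changes are Visomitin minus control on the log2(TPM + 1) scale, with folds on that scale, and were tested with limma over all 11753 genes that reached 1 TPM in 3 or more libraries. All 10 genes passed this filter. A gene is said to fall or rise only at a Benjamini-Hochberg adjusted p under 0.05. Over all tested genes, 591 fell and 244 rose; after median-ratio scaling of the libraries these counts were 689 and 481, and after quantile normalization 651 and 559. Leaving out 1 library gave 244 lower and 65 higher without control 1, 330 and 108 without control 2, 289 and 73 without control 3, 561 and 420 without Visomitin 1, 304 and 64 without Visomitin 2, and 559 and 130 without Visomitin 3. The median change of all tested genes was -0.03 in log2. Visomitin 1 stood apart by its median-ratio factor, a library's typical level relative to the others, which was 0.911 against 1.00 to 1.04 in the other 5 libraries. All 10 osteoclast markers examined fell (median log2 change -2.04; summed level 11171 to 12121 TPM in control and 2938 to 3531 TPM with Visomitin), and 2 of 8 macrophage markers rose (summed level 36102 to 40404 and 41737 to 46890 TPM). Stromal markers summed to 113 to 323 TPM in control and 79.1 to 167 TPM with Visomitin, with 0 of 6 tested past limma's threshold, 2 at an unadjusted p under 0.05, and Bglap listed at 0. All 6 erythroid markers were listed at 0, lymphoid markers summed to at most 1.65 TPM, dendritic markers to at most 2.07 TPM and neutrophil markers to at most 19.5 TPM.

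All 10 heat shock protein genes had a value below 0 with Visomitin, as did 55.7% of all tested genes, and 4 of them fell: Hsp90aa1 and Dnaja1 in the cytosolic group, Hspd1 and Hspe1 in the mitochondrial group. Among all tested genes, 5.03% fell and 2.08% rose. The largest fall was that of Hsp90aa1, 1.84-fold, and the smallest value that of Trap1, 1.08-fold lower, which did not pass. The 3 Visomitin libraries lay below all 3 control libraries for 7 of the 10 genes, as they did for 18.4% of tested genes. In bulk RNA, fewer cells of a type and less RNA per cell cannot be told apart. The part of the osteoclast, macrophage and stromal markers in these values was not tested.

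**Figure D1:**
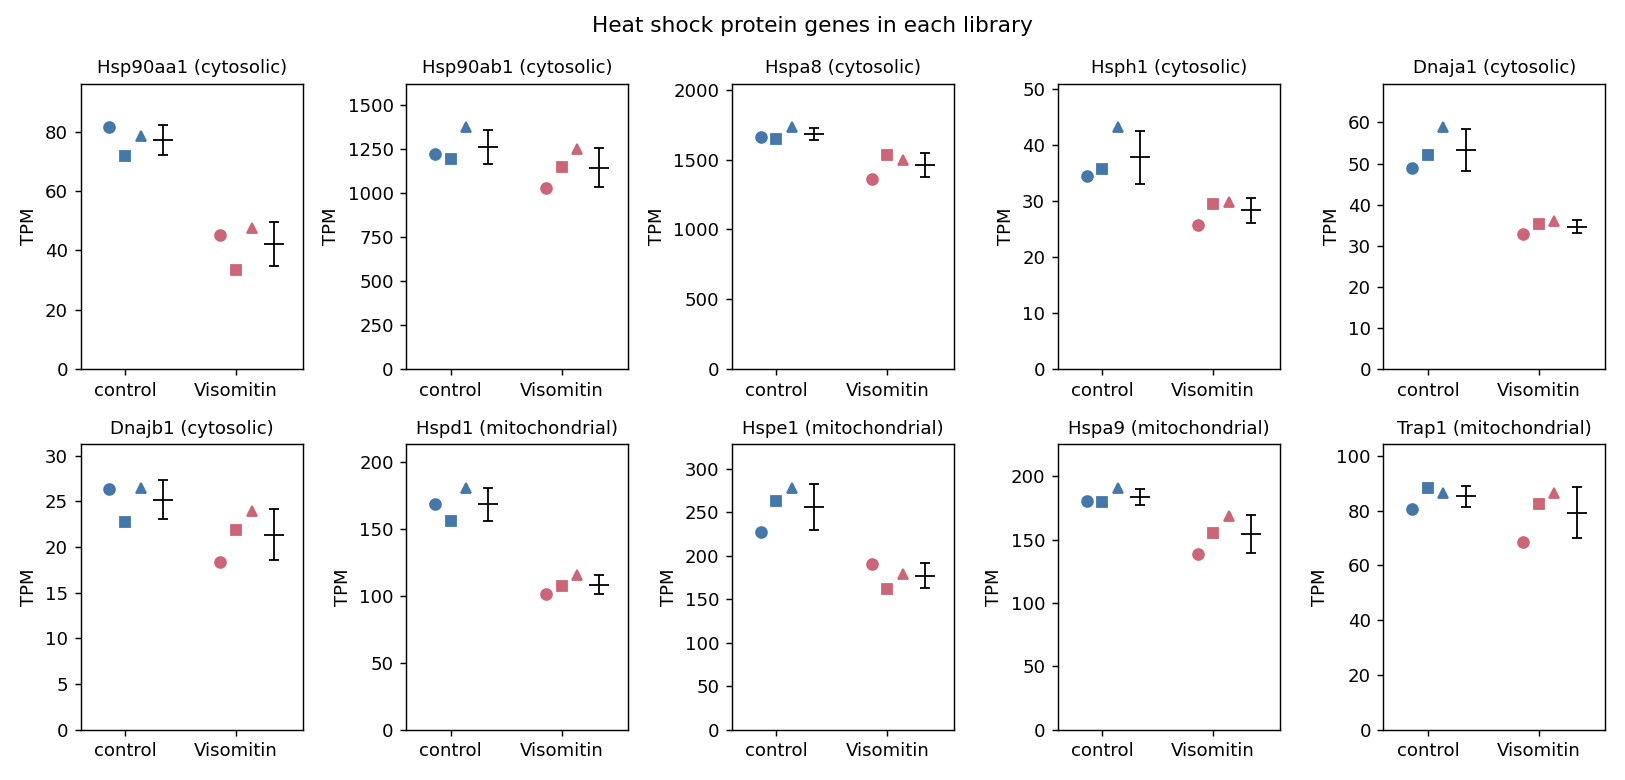
TPM of each of the 10 genes in each library (circle, square and triangle for replicates 1, 2 and 3), with the mean and SD of the 3 libraries beside them; every vertical axis starts at 0. The groups separate fully for 7 genes and overlap for Hsp90ab1, Dnajb1 and Trap1.

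The genes differed widely in level. Hspa8 (1683 ± 44.4 TPM in control; SD, n = 3) was the most abundant and Dnajb1 (25.2 ± 2.14 TPM) the least, 66.8-fold apart. The control order from the top was Hspa8, Hsp90ab1, Hspe1, Hspa9, Hspd1, Trap1, Hsp90aa1, Dnaja1, Hsph1 and Dnajb1, and the Visomitin means had the same order. In control, the ranges of Hspa9 and Hspd1 overlapped, as did those of Trap1 and Hsp90aa1, so these neighbours were not separated by more than their spread. With Visomitin, Hspe1 overlapped Hspa9 and Hsp90aa1 overlapped Dnaja1, while Hspa9 and Hspd1, and Trap1 and Hsp90aa1, no longer overlapped. The SD within a group was 2.64% to 17.9% of the mean, smallest for Hspa8 in control and largest for Hsp90aa1 with Visomitin. Visomitin 1 held the lowest level of all 6 libraries for 8 of the 10 genes, the exceptions being Hsp90aa1 and Hspe1. Without Visomitin 1 the same 4 genes passed, with log2 changes of -0.93 for Hsp90aa1, -0.56 for Dnaja1, -0.59 for Hspd1 and -0.58 for Hspe1, and Trap1 was at -0.01.

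Promoter windows are shown because HSF1 acts through a spelled element and because 2 of the fallen genes share a window. RefSeq windows (GRCm38.p6), each of 300 bases with 250 before the listed start, were found for 6 of the 10 genes (Hsph1, Dnaja1, Dnajb1, Hspd1, Hspe1 and Trap1), 11 windows in all. Both strands were searched for the 2-unit heat shock elements GAANNTTC and TTCNNGAA, each its own reverse complement, and for the 3-unit element GAANNTTCNNGAA, which reads TTCNNGAANNTTC on the other strand and contains both 2-unit elements. A 2-unit element lies in 15.1% of all 32851 windows of this length and a 3-unit element in 0.603%. Hspd1 and Hspe1 lie head to head and share 285 bases of window, that of Hspd1 on the minus strand at chr1:55087883-55088182 and that of Hspe1 on the plus strand at chr1:55087898-55088197. The shared stretch holds 18 bases of 4 alternating units, at -89 to -72 from the listed Hspe1 start and at -144 to -127 from this listed start of Hspd1. The window at the other listed start of Hspd1 holds neither element. Hsph1 (minus strand, chr5:149636287-149636586) has a 2-unit element at -33 to -26 and a 3-unit element at 37 to 49. Counted from its other listed start, the same elements lie at -54 to -47 and at 16 to 28. Dnaja1 (plus strand, chr4:40722218-40722517) has a 2-unit element at -124 to -117, which its other 2 windows lack. Trap1 (minus strand, chr16:4077761-4078060) and both windows of Dnajb1 hold neither. Capitals mark the bases of matched elements, 5′ to 3′ on the gene's strand.
Hspe1: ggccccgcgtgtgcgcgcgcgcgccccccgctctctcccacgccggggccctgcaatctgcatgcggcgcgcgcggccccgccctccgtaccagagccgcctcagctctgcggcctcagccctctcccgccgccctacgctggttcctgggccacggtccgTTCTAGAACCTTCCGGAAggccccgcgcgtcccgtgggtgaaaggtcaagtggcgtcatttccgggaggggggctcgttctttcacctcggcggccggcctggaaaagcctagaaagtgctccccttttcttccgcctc
Hsph1: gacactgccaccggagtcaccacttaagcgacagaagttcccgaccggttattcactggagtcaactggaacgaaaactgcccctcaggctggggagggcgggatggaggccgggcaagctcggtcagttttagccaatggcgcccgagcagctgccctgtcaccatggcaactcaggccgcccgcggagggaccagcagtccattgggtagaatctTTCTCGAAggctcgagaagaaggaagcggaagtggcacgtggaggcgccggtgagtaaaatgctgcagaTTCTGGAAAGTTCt
Dnaja1: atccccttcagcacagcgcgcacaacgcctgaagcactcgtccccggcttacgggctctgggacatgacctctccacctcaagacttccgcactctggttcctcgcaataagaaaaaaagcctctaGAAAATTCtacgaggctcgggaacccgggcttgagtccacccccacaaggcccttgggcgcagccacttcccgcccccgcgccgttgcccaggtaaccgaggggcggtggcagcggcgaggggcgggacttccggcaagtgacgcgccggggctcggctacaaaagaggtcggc
Trap1: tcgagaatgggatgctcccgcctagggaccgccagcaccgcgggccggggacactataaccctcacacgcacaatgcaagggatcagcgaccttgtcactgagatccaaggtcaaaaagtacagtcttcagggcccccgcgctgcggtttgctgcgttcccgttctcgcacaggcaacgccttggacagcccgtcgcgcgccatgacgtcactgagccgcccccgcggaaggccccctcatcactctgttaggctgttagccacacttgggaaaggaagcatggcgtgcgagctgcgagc
A match is a spelling, not a measured binding site. Only exact spellings inside these windows were searched, so a window without a match does not show that a site is absent. Of the 6 genes with a window, Hspd1, Hspe1, Dnaja1 and Hsph1 had an element in some window, and Dnajb1 and Trap1 had none. Counted by window, as the shares of 15.1% and 0.603% are, 5 of 11 held a 2-unit element and 4 a 3-unit element. Both Hsph1 windows show the same elements. Hspd1 and Hspe1 share the same stretch, and 4 of the 10 genes, Hsp90aa1 among them, had no window. Any link between these elements and the changes was not tested. The letters TGATGCAA, bound by ATF4 with C/EBP partners, lie in 0.895% of all windows and in 0 of these 11.

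The cytosolic HSP90 genes encode the inducible alpha form (Hsp90aa1) and the constitutive beta form (Hsp90ab1) of the client-binding protein HSP90. Hsp90aa1 stood at 81.5, 71.7 and 78.7 TPM in control 1 to 3 and at 45.2, 33.5 and 47.5 TPM in Visomitin 1 to 3. The highest Visomitin library lay well under the lowest control. It fell by 0.88 in log2 (SE 0.14, 95% interval -1.19 to -0.56, limma adjusted p = 0.0088), and 2.37% of tested genes had a lower value. Its adjusted p was 0.0031 to 0.0497 over 16 alternative settings, highest without control 1. Hsp90ab1 was far more abundant, at 1222, 1195 and 1376 TPM in control and 1032, 1150 and 1252 TPM with Visomitin. Its groups overlapped and it did not pass (log2 change -0.15, interval -0.36 to 0.07, adjusted p = 0.40). The ratio of Hsp90aa1 to Hsp90ab1 was 0.0667, 0.0600 and 0.0572 in the controls and 0.0438, 0.0291 and 0.0380 with Visomitin. Hsp90aa1 RNA thus made up a smaller part of the pair in all 3 Visomitin libraries. The log2 ratio differed by -0.75, and by -0.58 without Visomitin 2 and -0.88 without Visomitin 1. The exact two-sided permutation test gave p = 0.1, the smallest that 3 against 3 libraries allow (0.2 adjusted over the 4 pairs of genes compared in this way).

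The HSP70 system of the cytosol was represented by its constitutive ATPase, Hspa8 (HSC70), the exchange factor Hsph1 (HSP110) and the J proteins Dnaja1 and Dnajb1 (HSP40). Hspa8 was at 1664, 1651 and 1733 TPM in the controls and at 1365, 1531 and 1495 TPM with Visomitin. The groups did not overlap, but the change was small and did not pass (log2 change -0.20, interval -0.37 to -0.03, adjusted p = 0.15). Hsph1 was at 34.5, 35.8 and 43.2 TPM in the controls and at 25.7, 29.4 and 29.9 TPM with Visomitin. It also had separate groups and missed the threshold (-0.40, interval -0.67 to -0.13, adjusted p = 0.079), as it did under all 16 alternative settings (0.0505 to 0.23).

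Of these J proteins, only Dnaja1 passed the threshold. Dnaja1, whose farnesylated product works with HSC70, stood at 48.9, 52.1 and 58.9 TPM in control and 32.8, 35.3 and 35.9 TPM with Visomitin, with a wide gap between the groups. It fell 1.52-fold (log2 change -0.60, SE 0.10, interval -0.83 to -0.38, adjusted p = 0.011). Dnajb1, the heat-inducible J protein, was at 26.4, 22.7 and 26.5 TPM in the controls and at 18.3, 21.8 and 23.9 TPM with Visomitin. Its groups overlapped and it did not pass (-0.23, interval -0.52 to 0.05, adjusted p = 0.30). The ratio of Dnaja1 to Dnajb1 was 1.85, 2.29 and 2.22 in control and 1.79, 1.62 and 1.503 with Visomitin. The ranges of the ratio did not overlap, with control 1 only just above Visomitin 1 (log2 difference -0.37, exact two-sided permutation p = 0.1, 0.2 adjusted over 4 pairs).

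**Figure D2:**
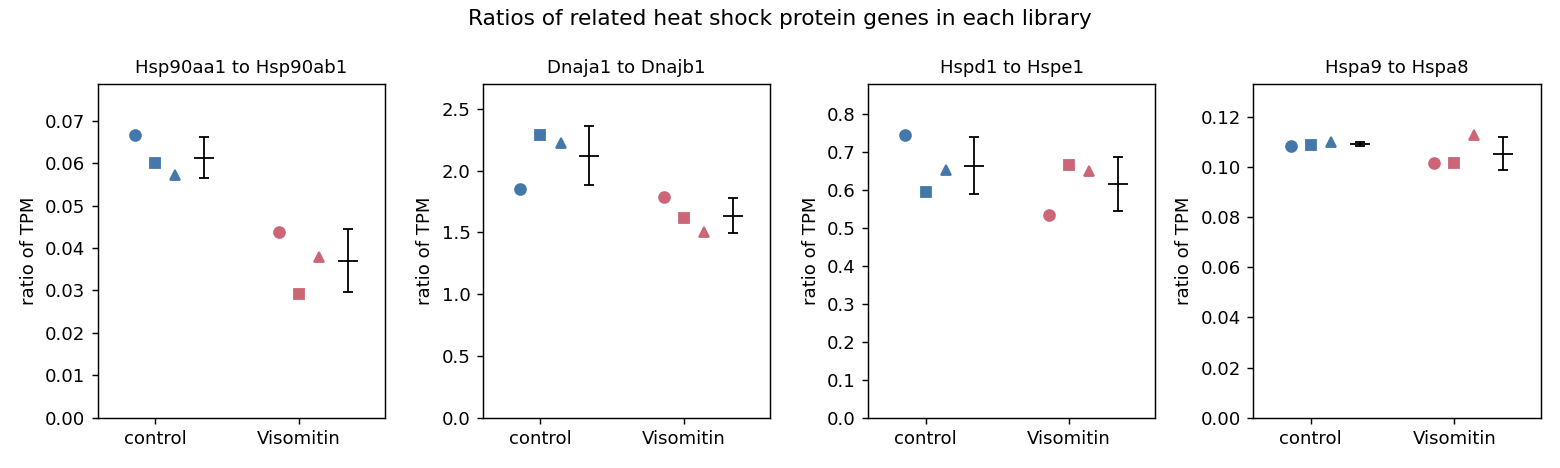
Ratio of TPM for 4 pairs of related genes in each library (circle, square and triangle for replicates 1, 2 and 3), with the mean and SD beside them; axes start at 0. The Hsp90aa1 to Hsp90ab1 and Dnaja1 to Dnajb1 ratios are lower in the 3 Visomitin libraries than in all 3 controls, and the other ratios overlap between groups.

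In the mitochondrial matrix, the chaperonin genes fell together. Hspd1, the HSP60 barrel subunit, was at 169, 156 and 181 TPM in the controls and at 102, 108 and 116 TPM with Visomitin. All 3 Visomitin libraries lay below the control range, and Hspd1 fell 1.55-fold (log2 change -0.63, SE 0.09, interval -0.84 to -0.43, adjusted p = 0.0058). Hspe1, the HSP10 lid subunit, was at 227, 263 and 278 TPM in the controls and at 191, 162 and 179 TPM with Visomitin. Its groups were separate too, with a narrower gap, and it fell 1.44-fold (-0.53, SE 0.10, interval -0.76 to -0.29, adjusted p = 0.021). This call was lost without control 2 (adjusted p = 0.070), control 3 (0.082) or Visomitin 2 (0.081), with no filter on low values (0.068), after median-ratio scaling (0.052) and without the variance trend (0.051), in a range of 0.019 to 0.082 over all alternatives. The ratio of Hspd1 to Hspe1 was 0.745, 0.595 and 0.651 in control and 0.532, 0.664 and 0.648 with Visomitin, overlapping groups (log2 difference -0.11, exact two-sided permutation p = 0.5, 0.5 adjusted over 4 pairs). With 1 library left out this difference ranged from -0.19 (without control 2) to -0.01 (without Visomitin 1); it was -0.17 without Visomitin 2 and -0.02 without control 1.

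The other matrix chaperones had smaller values. Hspa9 (mortalin), the mitochondrial HSP70, was at 180, 180 and 191 TPM in the controls and at 139, 155 and 169 TPM with Visomitin. The groups did not overlap, and the change did not pass (log2 change -0.25, interval -0.46 to -0.04, adjusted p = 0.14). Trap1, the mitochondrial HSP90 relative, was at 80.6, 88.3 and 86.5 TPM in the controls and at 68.7, 82.4 and 86.6 TPM with Visomitin. Visomitin 2 and 3 lay inside the control range and only Visomitin 1 lay below it (-0.11, interval -0.35 to 0.13, adjusted p = 0.57). The ratio of Hspa9 to the cytosolic Hspa8 was 0.108, 0.109 and 0.110 in control and 0.102, 0.102 and 0.113 with Visomitin. The groups overlapped, with Visomitin 3 above all controls (log2 difference -0.05, exact two-sided permutation p = 0.4, 0.5 adjusted over 4 pairs). The difference was -0.10 without Visomitin 3 and -0.03 without Visomitin 1 or Visomitin 2.

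**Figure D3:**
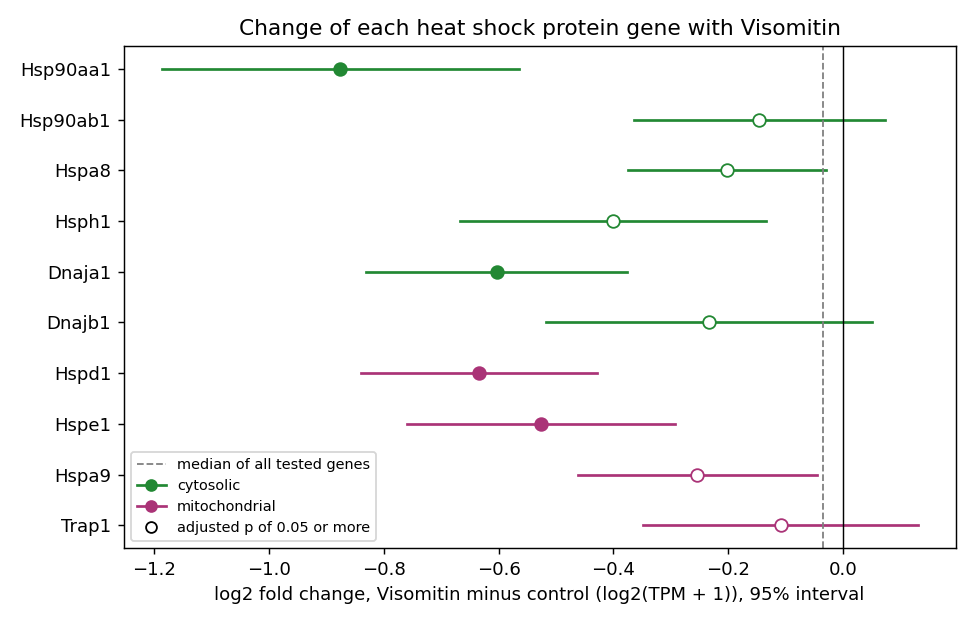
Log2 fold change (Visomitin minus control, log2(TPM + 1)) of each gene with its 95% interval from limma; filled points passed an adjusted p of 0.05, green is cytosolic, purple mitochondrial, and the dashed line is the median of all tested genes (-0.03). Hsp90aa1 lies farthest to the left, and fallen genes occur in both compartments.

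Set side by side, 2 of 6 cytosolic and 2 of 4 mitochondrial genes fell and 0 rose in either, against 5.03% of all tested genes lower and 2.08% higher. The median log2 changes were -0.32 and -0.39. The cytosolic count stayed at 2 under all 16 alternatives, while the mitochondrial count was 1 in 6 of them, those in which Hspe1 lost its call. The difference between the counts was not tested. With each gene centred on its own mean over the libraries and given equal weight, the mitochondrial minus the cytosolic mean was -0.05, 0.05 and -0.04 in control 1 to 3 and 0.02, 0.02 and 0.00 in Visomitin 1 to 3. These values overlapped, so no separation of the compartments was seen on this scale. Summed TPM gave another picture. The cytosolic genes together held 3077, 3028 and 3316 TPM in control and 2519, 2801 and 2884 TPM with Visomitin, and the mitochondrial genes 658, 687 and 736 TPM in control and 499.8, 507 and 551 TPM with Visomitin. The mitochondrial share of the sum was 17.6%, 18.5% and 18.2% in control and 16.6%, 15.3% and 16.0% with Visomitin, lower in all 3 Visomitin libraries. Hspa8 and Hsp90ab1, which did not pass, make up 93.8% of the cytosolic sum in control and so weigh most in this share. No p is given for these summaries, because the genes were chosen with earlier results known. The same choice lies behind the p-values given for single genes and for pairs.

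Other chaperone and protein quality control genes were read from 8 further lists. Of their 90 tested genes, 6 fell and 0 rose, with a median log2 change of -0.13. Of all tested genes 5.03% fell, so this count is near the background. Cochaperones of HSP70 and HSP90 gave 0 of 27 in either direction by limma (median -0.16), with 10 at an unadjusted p under 0.05, as were 24.4% of all tested genes. Closest to the threshold was Ahsa1, which stimulates the HSP90 ATPase (control 213 ± 20.6 TPM, Visomitin 157 ± 18.8 TPM; SD, n = 3; log2 change -0.44, adjusted p = 0.051). Ahsa1 passed in 4 of 16 alternatives, among them median-ratio scaling (0.044), a mean filter of 5 TPM (0.045) and the fit without Visomitin 3 (0.030), with a range of 0.016 to 0.16 over all alternatives. Other cytosolic HSP70 genes gave 0 of 6 by limma, 2 at an unadjusted p under 0.05 (median -0.09; lowest p for Hspa4, -0.36, adjusted p = 0.099), and other J proteins 0 of 13, also 0 unadjusted (median -0.10; lowest p for Dnajb5, -0.31, adjusted p = 0.25). The stress-inducible HSP70 genes Hspa1a and Hspa1b, named after their values were seen and nearly identical in sequence, so that reads between them are uncertain, were low. Hspa1b was at 9.54 to 11.4 TPM in the controls and at 6.44 to 9.04 TPM with Visomitin (adjusted p = 0.19), and Hspa1a at 3.37 to 4.78 and 2.61 to 4.31 TPM (adjusted p = 0.75). Small heat shock proteins gave 0 of 4 by limma, also 0 unadjusted (median 0.03; lowest p for Hspb8, -0.28, adjusted p = 0.52).

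The factors that control heat shock genes gave 0 of 4 tested by limma, also 0 at an unadjusted p under 0.05, with a median of -0.05, and the lowest p belonged to Hsbp1, which encodes a protein that binds HSF1 (-0.11, adjusted p = 0.44). Hsf1 itself, named after its values were seen, was at 20.7 to 26.3 TPM in the controls and at 17.5 to 27.4 TPM with Visomitin, overlapping groups (adjusted p = 0.75). HSF1 is controlled mainly as a protein, which these data do not measure.

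The cytosolic chaperonin CCT, which folds actin and tubulin, and its partner prefoldin gave 3 of 14 lower and 0 higher (median -0.19). All 3 were CCT subunits, and of all tested genes 5.03% fell and 2.08% rose. Cct3 went down from 218 ± 19.2 TPM to 143 ± 14.5 TPM (SD, n = 3; log2 change -0.61, SE 0.10, adjusted p = 0.012), Cct6a from 120 ± 5.70 to 85.2 ± 11.3 TPM (-0.50, adjusted p = 0.028) and Cct8 from 87.8 ± 3.92 to 65.9 ± 4.77 TPM (-0.41, adjusted p = 0.030). Cct3 kept its call under all 16 alternatives. Cct6a and Cct8 lost theirs without control 1, 2 or 3 or Visomitin 2, with no filter and without the trend (adjusted p up to 0.11 for Cct6a and 0.12 for Cct8).

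Partners of the matrix chaperones gave 2 of 10 lower and 0 higher (median -0.14). Their log2 changes ran from -0.94, in a gene that did not pass, to 0.37, with 8 values below 0 and 2 above. By limma, 5 were at an unadjusted p under 0.05, as were 24.4% of all tested genes. Grpel1, the exchange factor of mitochondrial HSP70, fell from 27.4 ± 1.29 TPM to 18.8 ± 0.96 TPM (SD, n = 3; log2 change -0.52, SE 0.10, adjusted p = 0.018), and Dnaja3, its J protein, from 51.3 ± 2.27 to 38.3 ± 3.56 TPM (-0.42, SE 0.10, adjusted p = 0.041). Among 12 mitochondrial proteases and their scaffold proteins, 1 fell and 0 rose (median -0.14), against 5.03% and 2.08% of all tested genes. All 12 had a value below 0, as did 55.7% of all tested genes. For 5 of the 12, all Visomitin libraries lay below all controls, as they did for 18.4% of tested genes. The gene that fell was Phb, for the membrane scaffold prohibitin, from 230.1 ± 26.6 to 165 ± 18.6 TPM (-0.48, adjusted p = 0.044). Grpel1 lost its call without control 1, 2 or 3 or Visomitin 2 (adjusted p up to 0.072). Dnaja3 lost it without each library except Visomitin 3, with no filter and without the trend (up to 0.14), and Phb without each library except Visomitin 1, with no filter, without the trend and under both scalings (up to 0.13).

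**Figure D4:**
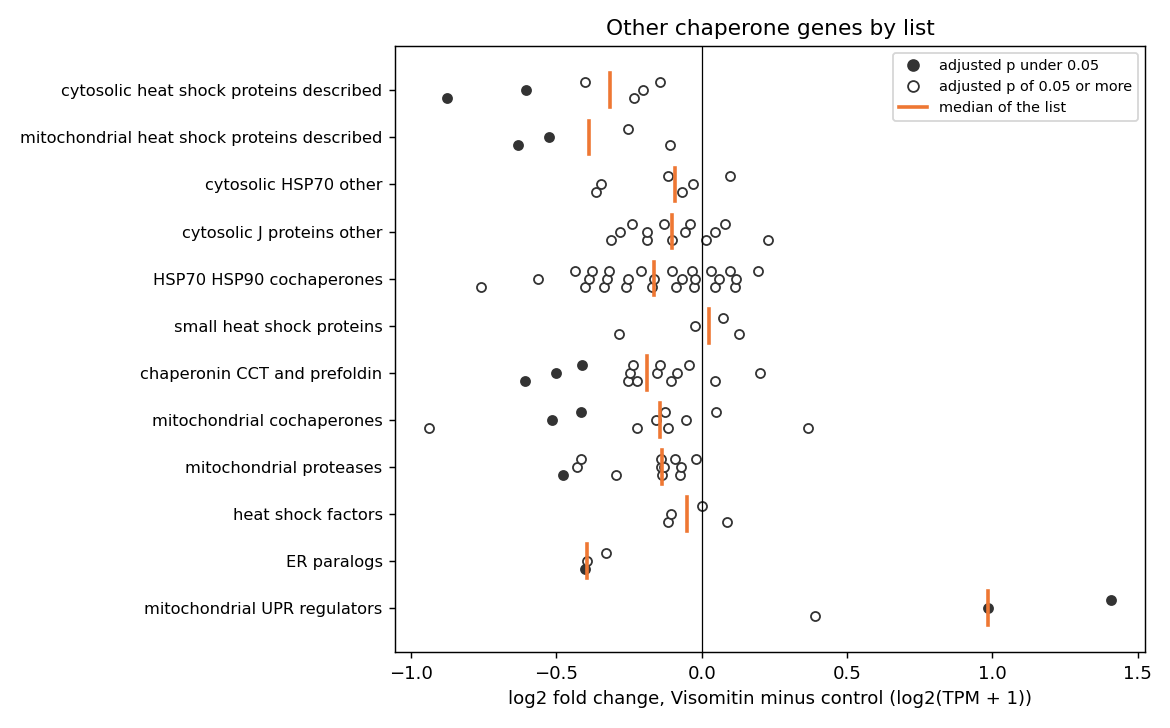
Log2 fold change (Visomitin minus control, log2(TPM + 1)) of each tested gene, by list; each point is a gene, filled where the adjusted p was under 0.05, and the orange bar is the median of the list. Filled points to the left of 0 occur among the described heat shock proteins, CCT, the mitochondrial cochaperones, the proteases and the endoplasmic reticulum relatives, and those to the right only among the regulators of the mitochondrial response.

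Of 3 regulators tied to the mitochondrial unfolded protein response, 2 rose and 0 fell, against 2.08% and 5.03% of all tested genes. This response, set off by misfolded proteins in the matrix, is known to raise HSP60 and HSP10 with the transcription factors CHOP (Ddit3), ATF4 and ATF5. Ddit3 was at 14.1, 18.7 and 14.01 TPM in the controls and at 41.3, 39.7 and 47.5 TPM with Visomitin, and rose (log2 change 1.41, SE 0.14, adjusted p = 0.00080). Atf5 was at 62.8, 57.8 and 76.4 TPM in the controls and at 115, 139 and 138 TPM with Visomitin, and rose (0.99, SE 0.12, adjusted p = 0.0034). Atf4 was at 98.8 to 110 TPM in the controls and at 122 to 159 TPM with Visomitin, separate groups that did not pass (0.39, adjusted p = 0.070), and it passed in 4 of 16 alternatives, among them median-ratio scaling (0.023), quantile normalization (0.021) and the fit without Visomitin 1 (0.037), in a range of 0.021 to 0.20 over all alternatives. In the same libraries Hspd1 and Hspe1 fell. Whether that response was active, and whether these changes are linked, was not tested. The proteases Clpp and Lonp1, also counted among genes of that response and named after their values were seen, had overlapping groups: Clpp was at 32.0 to 39.4 TPM in the controls and at 28.1 to 38.8 TPM with Visomitin (adjusted p = 0.73), and Lonp1 at 63.5 to 67.9 and 56.8 to 73.5 TPM (adjusted p = 0.93).

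The endoplasmic reticulum holds relatives of these chaperones too. Hspa5 (BiP), its HSP70, fell from 301 ± 16.4 TPM to 228 ± 17.4 TPM (SD, n = 3; log2 change -0.40, SE 0.09, adjusted p = 0.030). Hsp90b1 (GRP94), its HSP90, was at 209 ± 16.5 and 166 ± 4.84 TPM and missed the threshold (log2 change -0.33, adjusted p = 0.052). Its adjusted p was 0.047 to 0.18 over 16 alternatives, and it passed in 2 of them, one being the fit without Visomitin 1 (0.0496). Hyou1, its HSP110 relative, was at 69.3 ± 8.003 and 52.7 ± 8.08 TPM (-0.40, adjusted p = 0.12). The call of Hspa5 was lost without control 1, 2 or 3 or Visomitin 2, with no filter and without the trend (adjusted p up to 0.11).

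The genes whose levels ran most like the heat shock proteins over the 6 libraries were named by Pearson's r with the centred mean of each compartment, among 7004 genes with a mean of at least 10 TPM. Such an r is a description: it mainly carries the difference between the groups that these genes share. For the cytosolic mean they were Cttn (r = 0.998), which encodes the actin-binding cortactin, Tubb6 (0.997), a beta-tubulin, Nkain1 (0.996) and Cd300ld3 (0.996). For the mitochondrial mean they included Slc39a7 (0.999), a zinc transporter, Dusp4 (0.997), a MAP kinase phosphatase, and Agpat4 (0.996), an acyltransferase. The likeness is in the relative pattern over the libraries, not in size. Cttn changed by -1.30 in log2, against -0.88 for Hsp90aa1, and Dusp4 by -1.61, against -0.63 for Hspd1. Cttn and Dusp4 passed the threshold, while Cd300ld3 (-0.27, adjusted p = 0.085) did not. Of the other genes, Slc39a7 (-0.31, adjusted p = 0.0497) lost its call under 10 of 16 alternatives, among them each pseudocount, quantile normalization and the fits without control 1, 2 or 3 or Visomitin 2 or 3.

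Processed pseudogenes are common for heat shock genes and can take reads from their parents. The table lists 13 copies that carry the name of one of the 10 genes, none above 0.08 TPM. By sequence, 10 genes share at least 50% of their 31-base words with one of the 10, and none exceeded 1.2 TPM. Adding these copies to their parent genes moved none of the 10 calls. At such low levels they could hardly move one, so this does not test for reads misassigned between copies and parents. How reads shared with such copies were assigned is not stated. In GENCODE M21, Hspd1 and Hspe1 overlap on opposite strands by 112 exon bases, Dnaja1 and Smu1 by 608, and Trap1 and Dnase1 by 54. Smu1 was at 47.21 to 67.73 TPM over the 6 libraries and Dnase1 at 0.51 to 1.2 TPM. Whether the counting used strand is not stated, so reads from these stretches may be split between the genes of a pair.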

How the data were processed

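RNA from 6 libraries was made into stranded mRNA libraries, per the labels' protocols. The deposited values are TPM per Ensembl gene, computed by the authors within each library; fastp, HISAT2 and StringTie are named in the submitters' processing notes, and their versions, the genome build and the annotation are not stated there. Symbols came from a reference table and matched 51884 of 57180 identifiers. Genes that reached 1 TPM in 3 or more libraries were tested (11753). Values as log2(TPM + 1) were fitted with limma 3.58.1 in R 4.3.3 (lmFit, eBayes with trend, group only), two-sided, with Benjamini-Hochberg adjustment over all tested genes. The script was tested on simulated data.

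The 10 genes, the other gene lists and the tests were chosen with earlier results of these data known. Named genes are the 10, the members of each further list past the threshold (up to 4 with the lowest p, otherwise the lowest p), all endoplasmic reticulum relatives and mitochondrial response regulators, and the 4 genes most alike per compartment. Ratios of 4 pairs were compared by exact permutation. Alternatives were 15 planned settings and 1 added after seeing the data (copies found by sequence). TPM keep no counts, so the number of libraries limits the precision. One gene that the rule for similar patterns named is not reported here.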

Additional observations from a re-analysis of the deposited data

How the results depend on the processing

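Under 16 alternatives, all 10 genes kept a value below 0, and 154 of 160 values stayed on their side of the threshold. The 6 that did not are those of Hspe1. Settings that added copies to their parent genes are counted here, though they could hardly move a value. The median log2 change stayed at -0.38 to -0.24 for the cytosolic and -0.44 to -0.32 for the mitochondrial genes. The number of mitochondrial genes past the threshold was 1 with no filter on low values, 1 after median-ratio scaling and 1 without the trend, and 1 to 2 when each library was left out; the cytosolic number stayed at 2. Over all genes, 835 passed, 381 with no filter, and 309 to 981 with a library left out: leaving out control 1 gave 309, control 2 gave 438, control 3 gave 362, Visomitin 2 gave 368 and Visomitin 1 gave 981. Of 399 values of the other 25 genes chosen by the naming rule, 51 lost a call, 10 gained one and 0 reversed. Residuals of libraries with the same number correlated at 0.05, 0.02 and 0.17, which neither shows nor excludes pairing. With the library number as a replicate block, 1107 genes passed, against 835 without it. Among them were 2 cytosolic and 2 mitochondrial genes. Among the named genes this block moved 3 calls, with Ahsa1 (adjusted p = 0.016), Atf4 (0.035) and Hsp90b1 (0.047) past the threshold with it and not in the fit by group alone. Of the 6 libraries, 3 correlated best with the library of their own number.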
